A study of Mus musculus with 17 samples.

Results

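A set of 10 genes best known from fat cells were followed through the RNA of newborn mouse testes, with newborn forebrain as the contrast: Adipoq, Lep, Retn, Cfd, Cidec, Plin4, Plin1, Fabp4, Pparg and Lpl. They are 10 of the 55359 genes in the deposited count table, found there by the Ensembl identifier that the GENCODE mouse annotation gives to each symbol. They were chosen by their levels in these same testes, which earlier results had shown across genotypes, as a possible sign of attached fat or of a lipid programme. Their testes values are therefore given as a description, without tests.

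The libraries came from male pups at postnatal day 1 of a mouse strain in which the osteocalcin genes were removed by homologous recombination in embryonic stem cells, on the 129/SvEv background. Testes were taken from 2 WT pups of WT mothers, 3 Ocn+/- pups and 3 Ocn-/- pups, and forebrain from 3 pups of each genotype. All Ocn+/- and Ocn-/- pups had Ocn-/- mothers and no WT pup had one, so the genotype of the pup, the genotype of the mother and the litter cannot be told apart when mutant and WT libraries are compared. The deletion is present in every cell of the mutant pups, and the sample labels call the brain tissue hippocampus where the study's methods describe forebrain including hippocampus. Expected counts summed to between 7302401 and 8289015 per testes library and between 6518151 and 14621584 per forebrain library, and forebrain WT 3 was the shallowest. The osteocalcin genes themselves were too low to check the genotypes, with 0 to 2 counts of Bglap and 0 counts of Bglap2 in every testis. Nothing in the labels says whether libraries of a genotype came from separate litters, so p-values measure only the spread between these libraries, which may in part be technical.

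White adipocytes store triglyceride in a large lipid droplet. Lipoprotein lipase, the product of Lpl, is made by the cells that take up fat and works on the capillary wall, where it frees fatty acids from circulating lipoproteins. Fabp4 carries fatty acids inside cells and is found in adipocytes, macrophages and capillary endothelium. Plin1 and Plin4 coat the lipid droplet, and Plin1 is also known from steroid-making cells, which keep cholesterol esters in droplets. Cidec fuses droplets. Pparg is the nuclear receptor that drives adipocyte differentiation together with C/EBP factors. Adipoq, Lep, Retn and Cfd encode the secreted products adiponectin, leptin, resistin and adipsin, and adiponectin and leptin are defining products of mature adipocytes.

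The genes lie apart in the genome. In the GENCODE annotation of GRCm39, Lpl is on chromosome 8 from 69284603 to 69360100 on the plus strand, Fabp4 on chromosome 3 from 10268785 to 10273737 on the minus strand, Pparg on chromosome 6 from 115337675 to 115468268 on the plus strand and Plin1 on chromosome 7 from 79369966 to 79382718 on the minus strand. The counts are estimates per gene over the transcripts of the annotation that the authors used. Lep (chromosome 6, 29060216 to 29073877) shares a chromosome with Pparg and with Cidec (113400691 to 113412721), and Retn (chromosome 8, 3705324 to 3710689) shares one with Lpl. Adipoq is on chromosome 16 (22964106 to 22976810), Plin4 on chromosome 17 (56406617 to 56416931) and Cfd on chromosome 10 (79726668 to 79728496).

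The 250 bases before the annotated start of the main transcript are shown for Lpl, Pparg and Plin1, genes whose levels the comparisons turn on, read from the GRCm39 genome in the direction of transcription. Capitals mark matches to the motifs searched on both strands, which were the DR1 site of PPAR factors, the AGGTCA unit that DR1 repeats and that lies inside it, the C/EBP letters TTGCNNAA and TATAAA. The windows are chr8:69332893-69333142 for Lpl, chr6:115339003-115339252 for Pparg and chr7:79382719-79382968 for Plin1.
Lpl: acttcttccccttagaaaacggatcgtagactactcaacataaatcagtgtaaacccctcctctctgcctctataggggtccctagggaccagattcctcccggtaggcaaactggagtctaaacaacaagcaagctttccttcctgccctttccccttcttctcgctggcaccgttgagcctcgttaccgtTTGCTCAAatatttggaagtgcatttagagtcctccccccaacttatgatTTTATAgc
Pparg: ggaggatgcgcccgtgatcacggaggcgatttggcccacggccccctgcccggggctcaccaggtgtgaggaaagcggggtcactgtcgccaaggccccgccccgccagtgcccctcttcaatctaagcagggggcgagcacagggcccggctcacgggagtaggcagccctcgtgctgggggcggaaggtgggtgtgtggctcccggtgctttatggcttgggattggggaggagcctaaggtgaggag
Plin1: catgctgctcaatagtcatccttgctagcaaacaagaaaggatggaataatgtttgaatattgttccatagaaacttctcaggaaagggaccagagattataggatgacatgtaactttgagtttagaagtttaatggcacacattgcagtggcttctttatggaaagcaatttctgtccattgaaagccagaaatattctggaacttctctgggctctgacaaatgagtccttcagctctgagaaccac
The Lpl window held TTGCTCAA 58 bases before the start and TTTATA, which is TATAAA on the other strand, 8 bases before it. The windows of Pparg and Plin1 held none of these letters. Among Adipoq, Lep, Retn, Cfd, Cidec and Plin4, Lep alone held a match, TTGCGCAA at 51 bases. Of 21770 promoters of protein-coding genes cut to this length, 0.0367% held DR1, 13.1% AGGTCA, 9.34% the C/EBP letters and 11.9% TATAAA, so single matches of this kind are common.

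Most of the 10 genes were close to absent from the testes. Lep and Cfd had 0 counts in all 8 testes and in all 9 forebrains, which allows up to 0.0478 CPM (counts scaled to a common library size) over the pooled testes and 0.0273 CPM over the pooled forebrains, by counting error alone. Whether the counting could give reads to Cfd at all was not checked, so for Cfd the 0 and its limit may say nothing of its level. In WT testes Adipoq had 0 and 3 counts, beside 0, 3 and 0 in Ocn+/- and 4, 2 and 2 in Ocn-/- testes. Cidec had 0 to 2 counts per testis, Retn 0 to 2 and Plin4 1 to 5.

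Summed over Adipoq, Lep, Retn, Cfd, Cidec and Plin4, a testis held 3 to 8 counts, between 0.399 and 1.01 CPM. A forebrain held 0 to 11 counts of the same 6 genes, between 0 and 0.739 CPM. The ranges of the 2 tissues overlap. In testes the sums were 0.777 to 1.01 CPM (WT), 0.399 to 0.757 (Ocn+/-) and 0.632 to 0.83 (Ocn-/-), so Ocn-/- overlapped both other genotypes and Ocn+/- lay just below WT, at a few counts per library. Other genes of the adipocyte lists ranged widely. Adig, a small protein of differentiated fat cells, had 0 counts in every library of both tissues, Aqp7, the glycerol channel of adipocytes, had 1 to 2 counts per testis, and the thermogenic gene Ucp1 of brown fat had 0 to 6. Others were far higher, with Aoc3 at 45.1 to 89.5 CPM per testis, the glucose transporter gene Slc2a4 at 15.8 to 22.3, the lipase gene Lipe at 12 to 21.5, Prdm16 at 7.46 to 12.9 and Cidea at 2.65 to 14.4. The defining products Adipoq and Lep thus stood at 0 to 4 counts in every testis, and the highest of the 10 genes in testes were Lpl, Plin1, Fabp4 and, with few counts, Pparg.

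**Figure D1:**
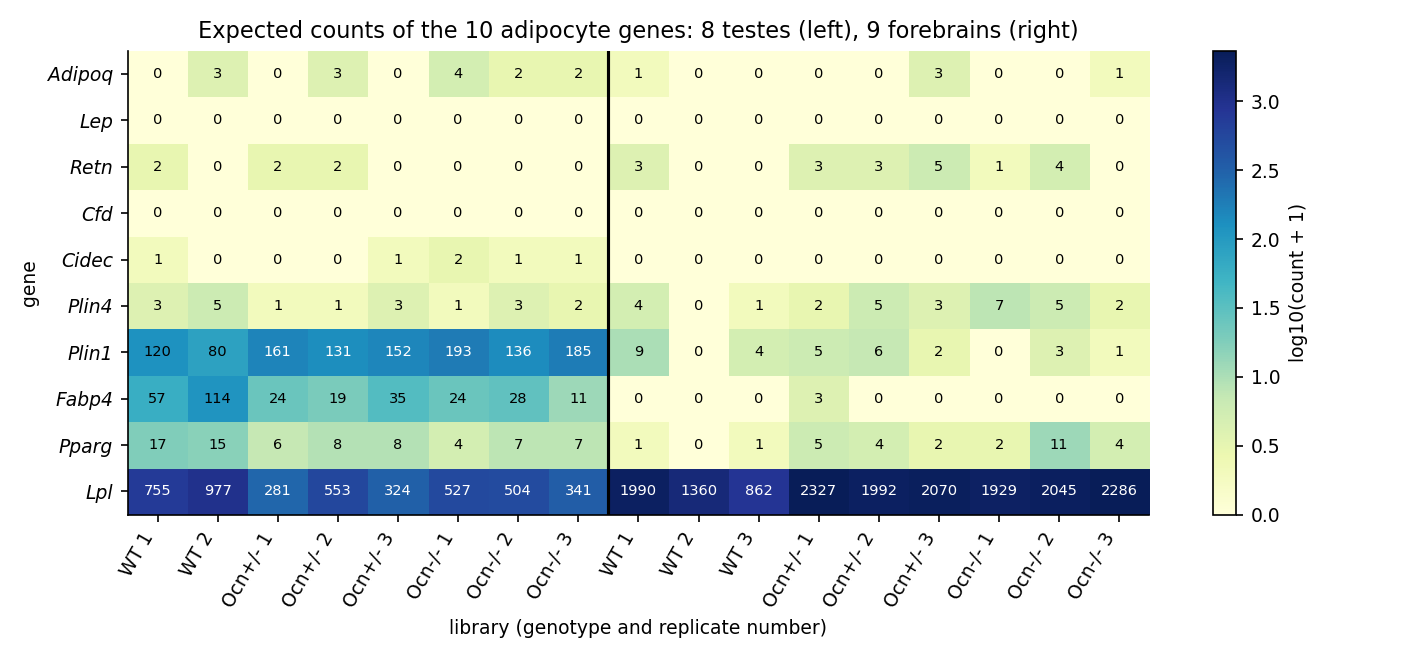
Expected counts, rounded, of the 10 genes in every library, with genes as rows, the 8 testes left of the black line and the 9 forebrains right of it, shaded by log10(count + 1). Lpl is high everywhere, Plin1, Fabp4 and Pparg have counts mostly in testes, and no other gene passes 7 counts in any library.

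Per kilobase of annotated exon, Lpl stood highest in testes at 5.55 ± 2.42 CPM (SD, n = 8 libraries of all genotypes), above 76.7% of the 28928 genes with a count. Plin1 followed at 2.91 ± 0.708 CPM per kilobase, above 66.8% of genes, and Fabp4 at 1.01 ± 0.848, above 54.5%. Pparg was at 0.166 ± 0.084, above 35.8%, and Adipoq at 0.0955 ± 0.085, above 29.1%. The ranges of neighbours in this order overlapped between libraries, from 3.05 to 10.1 CPM per kilobase for Lpl, 1.59 to 3.68 for Plin1, 0.281 to 2.9 for Fabp4, 0.068 to 0.316 for Pparg and 0 to 0.208 for Adipoq. Within libraries, Lpl was above Plin1 in 6 of 8 testes, Plin1 above Fabp4 in 7, Fabp4 above Pparg in all 8 and Pparg above Adipoq in 6. The mean pools genotypes that differ, and in WT testes the mean of Fabp4 (2.2 CPM per kilobase) was above that of Plin1 (2.02), with WT 2 the testis where Fabp4 was higher. Divided by the mean length of a gene's transcripts instead of all its exons, the levels were higher, at 21.1 for Lpl (above 84.3% of genes), 9.13 for Plin1, 3.76 for Fabp4 and 0.446 for Pparg, in the same order. Levels, ranks and order all depend on the annotation, in which the exons of Fabp4 cover 4953 bases, its whole gene span. The version of these genes in it is also not the one that was counted.

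Some reads could belong to other genes. Of the 50-base stretches in the annotated transcripts, 40.1% of those of Plin4 and 19.3% of those of Fabp4 also occur in transcripts of another gene. For Plin4 the main partner is Hdgfl2, which overlaps it on the other strand, and for Fabp4 it is the antisense transcript Gm66293. The shares were 0.9% for Plin1, 1% for Pparg and 2% for Lpl. Whether the counting used strand is not given in the sources used here, so reads of a gene and its antisense partner may have been divided between them.

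In testes, Plin1 was higher in the mutants than in WT, while Lpl, Fabp4 and Pparg were lower, and the libraries of mutants and WT did not overlap in any of the 4 genes. Of the 10 genes, 1 lay above every WT library in all 6 mutant testes, 3 lay below and 6 overlapped or were at 0. Over all 16361 genes tested in testes, 12.5% lay wholly above WT and 13.6% wholly below. Pparg passed the filter on low counts only through its WT level, so it had to differ among the genes tested, and the genotypes had been seen when the 10 genes were chosen. In whole organs, fewer cells of a type and less RNA per cell cannot be told apart, which holds for every difference below.

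Lpl was at 97.8 and 123 CPM in the WT testes, at 37.3, 69.8 and 44.5 in Ocn+/- and at 62.5, 64.2 and 43.1 in Ocn-/-. All mutant testes were below both WT testes, and the 2 mutant genotypes overlapped. Its log2 fold change, fitted by edgeR on counts, was -1.13 (standard error 0.262) in Ocn+/- against WT, -0.97 (0.261) in Ocn-/- against WT and 0.16 (0.243) in Ocn-/- against Ocn+/-.

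Fabp4 was at 7.38 and 14.4 CPM in the WT testes, at 3.19, 2.4 and 4.81 in Ocn+/- and at 2.85, 3.57 and 1.39 in Ocn-/-. Its WT libraries lay far apart, and the highest mutant, Ocn+/- 3, was still below the lower of them. The log2 fold change was -1.65 (standard error 0.404) in Ocn+/-, -2.06 (0.411) in Ocn-/- and -0.41 (0.405) between the mutants. Without WT 2 it was -1.08 in Ocn+/- and -1.48 in Ocn-/-, more than 1.5 times smaller in Ocn+/- on the log2 scale.

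WT testes held 17 and 15 counts of Pparg, Ocn+/- testes 6, 8 and 8, and Ocn-/- testes 4, 7 and 7. These are few counts, between 1.89 and 2.2 CPM in WT and between 0.474 and 1.1 CPM in the mutants. The log2 fold change was -1.07 (standard error 0.564) and -1.44 (0.575) against WT, with standard errors near 0.6 where those of Plin1 and Lpl were under 0.3.

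Plin1 went the other way. It was at 15.6 and 10.1 CPM in the WT testes, at 21.4, 16.5 and 20.9 in Ocn+/- and at 22.9, 17.3 and 23.4 in Ocn-/-. The gap was narrow, with Ocn+/- 2 at 16.5 CPM just above WT 1 at 15.6. The log2 fold change was 0.61 (standard error 0.231) in Ocn+/-, 0.73 (0.231) in Ocn-/- and 0.11 (0.198) between the mutants. Without WT 2 it was 0.35 in Ocn+/- and 0.47 in Ocn-/-.

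**Figure D2:**
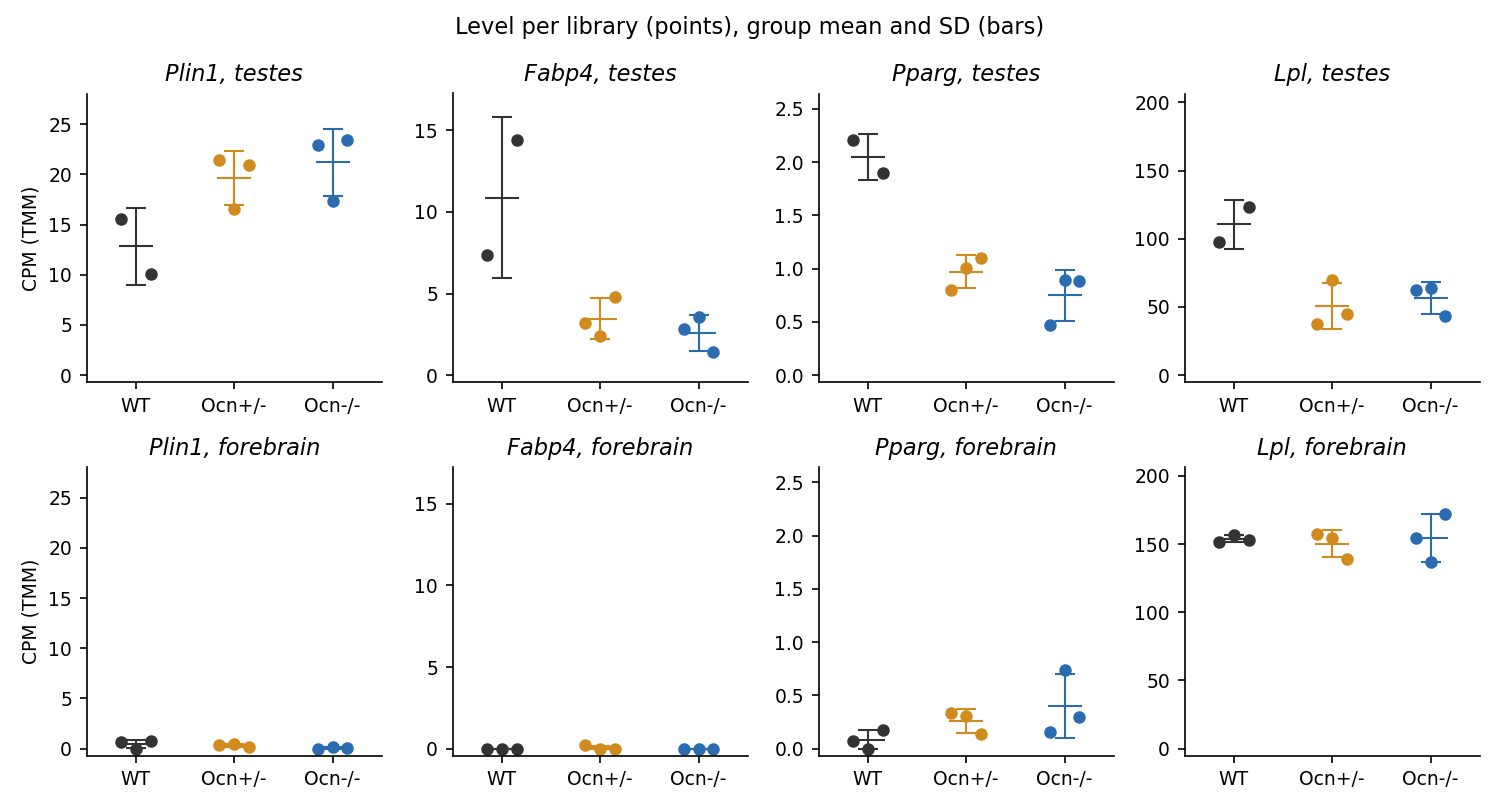
Level of Plin1, Fabp4, Pparg and Lpl in CPM (TMM scaled within each tissue) by genotype, in testes above and forebrain below, with points for libraries and bars for the group mean and SD, each gene on the same axis in both tissues. In testes all mutant points lie above WT for Plin1 and below WT for the other 3 genes, and in forebrain the genotypes of Lpl overlap.

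In edgeR's quasi-likelihood fit with Benjamini-Hochberg adjustment over all genes, 8.25% of genes were called in Ocn+/- testes against WT, 4.36% lower and 3.89% higher. In Ocn-/- testes 5.64% were called, 3.09% lower and 2.54% higher. Between Ocn-/- and Ocn+/- testes the fit called 0 of 16361 genes (0%), with 1881 genes at an unadjusted p under 0.05 and 76 genes called by DESeq2. No call is given for the 10 genes in testes, since their values there helped to choose them. Both comparisons with WT also share the same 2 WT testes, and their values are given side by side for that reason.

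In forebrain, Lpl was the only one of the 10 genes high enough to be tested, and its level did not separate the genotypes. The 3 WT forebrains were at 152, 157 and 153 CPM, the Ocn+/- at 157, 154 and 139 and the Ocn-/- at 154, 137 and 172. The log2 fold change was -0.03 (standard error 0.0871, adjusted p = 0.862) in Ocn+/- and 0.00 (0.0871, adjusted p = 0.985) in Ocn-/- by edgeR's quasi-likelihood test, and 0.04 (0.0862, adjusted p = 0.999) between the mutants. These comparisons called 3.89%, 4.85% and 0.00622% of the 16076 genes tested. Per kilobase of exon, Lpl in forebrain was at 12.5 ± 0.844 CPM (SD, n = 9), above 89.8% of genes with a count, beside 5.55 in testes. The scaling was done within each tissue, so the 2 levels stand side by side without a test.

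The other genes of the 10 were near 0 in forebrain. Fabp4 had 3 counts in 1 forebrain, Ocn+/- 1, and 0 in the other 8, where the testes had 11 to 114 counts. Plin1 had 0 to 9 counts per forebrain against 80 to 193 per testis. Pparg had 0 to 11 counts, with 1, 0 and 1 in WT, 5, 4 and 2 in Ocn+/- and 2, 11 and 4 in Ocn-/-, too few for the filter. Adipoq had 0 to 3 counts, Retn 0 to 5 and Plin4 0 to 7, and Cidec had 0.

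The other genes of the lipid and adipocyte pathways were taken as whole lists that hold none of the 10 genes. These lists were also chosen with earlier results of these data known, so their adjusted p-values are not free of that choice. Among transcription factors of adipocyte differentiation, 10 of 10 were tested in testes. In Ocn+/- testes 2 were lower and 1 higher, with a median log2 fold change of -0.20 beside 0.01 over all genes. In Ocn-/- testes 3 were lower and 0 higher, with a median of -0.55 beside -0.01. Leaving out 1 library at a time gave 1 to 5 calls in each genotype, the lowest without WT 2. Cebpa, a C/EBP factor that works with Pparg in adipocytes and also acts in other tissues, was lower in both genotypes, at 83.8 ± 1.41 CPM in WT (SD, n = 2), 28.4 ± 3.92 in Ocn+/- (n = 3) and 33.8 ± 0.555 in Ocn-/- (n = 3). Its log2 fold change by edgeR was -1.56 (standard error 0.144, adjusted p = 8.88e-06) in Ocn+/- and -1.31 (0.143, adjusted p = 6.16e-05) in Ocn-/-, and it stayed past the threshold in all 15 alternatives. Cebpb, a related factor that acts early in adipocyte differentiation, was at 24.1 ± 3.71, 11.1 ± 0.78 and 10.2 ± 2.56 CPM, with edgeR's log2 fold change at -1.12 (adjusted p = 0.00887) and -1.24 (adjusted p = 0.00542). Klf15, a zinc finger factor that responds to glucocorticoids, was lower in Ocn-/- (-1.35, standard error 0.302, adjusted p = 0.0167 by edgeR) and at -0.99 in Ocn+/- (adjusted p = 0.0502). Srebf1, which drives genes of fatty acid synthesis, was higher in Ocn+/- (0.67, standard error 0.146, adjusted p = 0.0131 by edgeR) and at 0.49 in Ocn-/- (adjusted p = 0.0562). Leaving out WT 2 ended the calls of Cebpb (adjusted p = 0.17 and 0.171), Klf15 (0.296) and Srebf1 (0.164), and leaving out WT 1 or Ocn+/- 3 ended that of Srebf1 (0.105 and 0.0525), and WT 1 that of Cebpb in Ocn+/- (0.0532).

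The lipid droplet and lipolysis genes did not pass the test in testes with all libraries. Of 14 genes, 11 were tested and 0 were called in Ocn+/- or Ocn-/- by edgeR's quasi-likelihood test, with medians of 0.16 and 0.20. With 8.25% and 5.64% of all genes called, 0 of 11 says little. Leaving out 1 library gave up to 2 calls in Ocn+/-, the 2 without Ocn+/- 2, and 0 in Ocn-/-. The whole list summed to 261 to 265 CPM in WT, 278 to 309 in Ocn+/- and 267 to 295 in Ocn-/- testes. Fitm2 (13.8 to 19.9 CPM, WT 10.1 to 11.4) and G0s2 (5.48 to 12.2, WT 4.54 to 4.79) lay above WT in every mutant testis. Over all genes 12.5% did so, and no gene of the list lay wholly below WT. The droplet coat genes Plin3 and Plin2 were the highest of the list by CPM. Plin3 was at 74 ± 2.02 CPM (WT), 77.8 ± 6.42 (Ocn+/-) and 77.4 ± 3.45 (Ocn-/-), and Plin2 at 37.4 ± 1.74, 39.7 ± 6.49 and 39.5 ± 1.23. The relatives of Plin1 that are present in most tissues thus had log2 fold changes of 0.07 to 0.09, with adjusted p from 0.752 to 0.803.

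Around lipoprotein lipase, the partner genes differed in direction. Of the 17 genes of fatty acid uptake and triglyceride synthesis, 16 were tested in testes. In Ocn+/- testes 1 was lower, and in Ocn-/- testes 2 were lower and 1 was higher, with medians of -0.06 and -0.11. The count in Ocn+/- and 1 of those in Ocn-/- are Pck1, described last, and leaving out 1 library gave 0 to 1 and 0 to 4 calls. Gpihbp1, the protein of capillary endothelium that binds lipoprotein lipase, was lower in Ocn-/- testes, at 4.06 ± 1.01 CPM against 9.32 ± 1.27 in WT (log2 fold change -1.20, standard error 0.314, edgeR adjusted p = 0.0351). In Ocn+/- it was at 5.94 ± 1.47 CPM (adjusted p = 0.197). Angptl4, a secreted inhibitor of lipoprotein lipase, was higher in Ocn-/- testes, at 34.4 ± 5.15 CPM against 15.5 ± 6.71 (1.15, standard error 0.288, edgeR adjusted p = 0.0376), and at 29.2 ± 8.32 CPM in Ocn+/- (adjusted p = 0.0679). Pck1, which makes precursors of glucose and of glycerol for triglyceride and which the study itself singled out in these testes, had 15 and 26 counts (WT), 1, 1 and 7 (Ocn+/-) and 3, 2 and 5 (Ocn-/-). Like Pparg, it passed the filter on low counts only through its WT level and so had to differ, and its counts are given without a test. Leaving out WT 2 ended the calls of Gpihbp1 (adjusted p = 0.374) and Angptl4 (0.335). Gpihbp1 was also lost without WT 1 (0.109), Ocn-/- 1 (0.109) or Ocn-/- 3 (0.0835), and Angptl4 without Ocn-/- 1 (0.103), Ocn-/- 2 (0.0652) or Ocn+/- 3 (0.0633).

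Angptl4 was higher in forebrain as well, at 4.17 ± 1.03 CPM (WT), 10.5 ± 3.13 (Ocn+/-) and 10.8 ± 2.28 (Ocn-/-) (SD, n = 3 each). Its log2 fold change there was 1.28 (standard error 0.253, edgeR adjusted p = 0.00849) and 1.32 (0.253, adjusted p = 0.00663), in a tissue where Lpl differed by no more than its error. Without WT 3, the shallow library, it was at 1.18 (adjusted p = 0.0624) and 1.22 (adjusted p = 0.051).

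**Figure D3:**
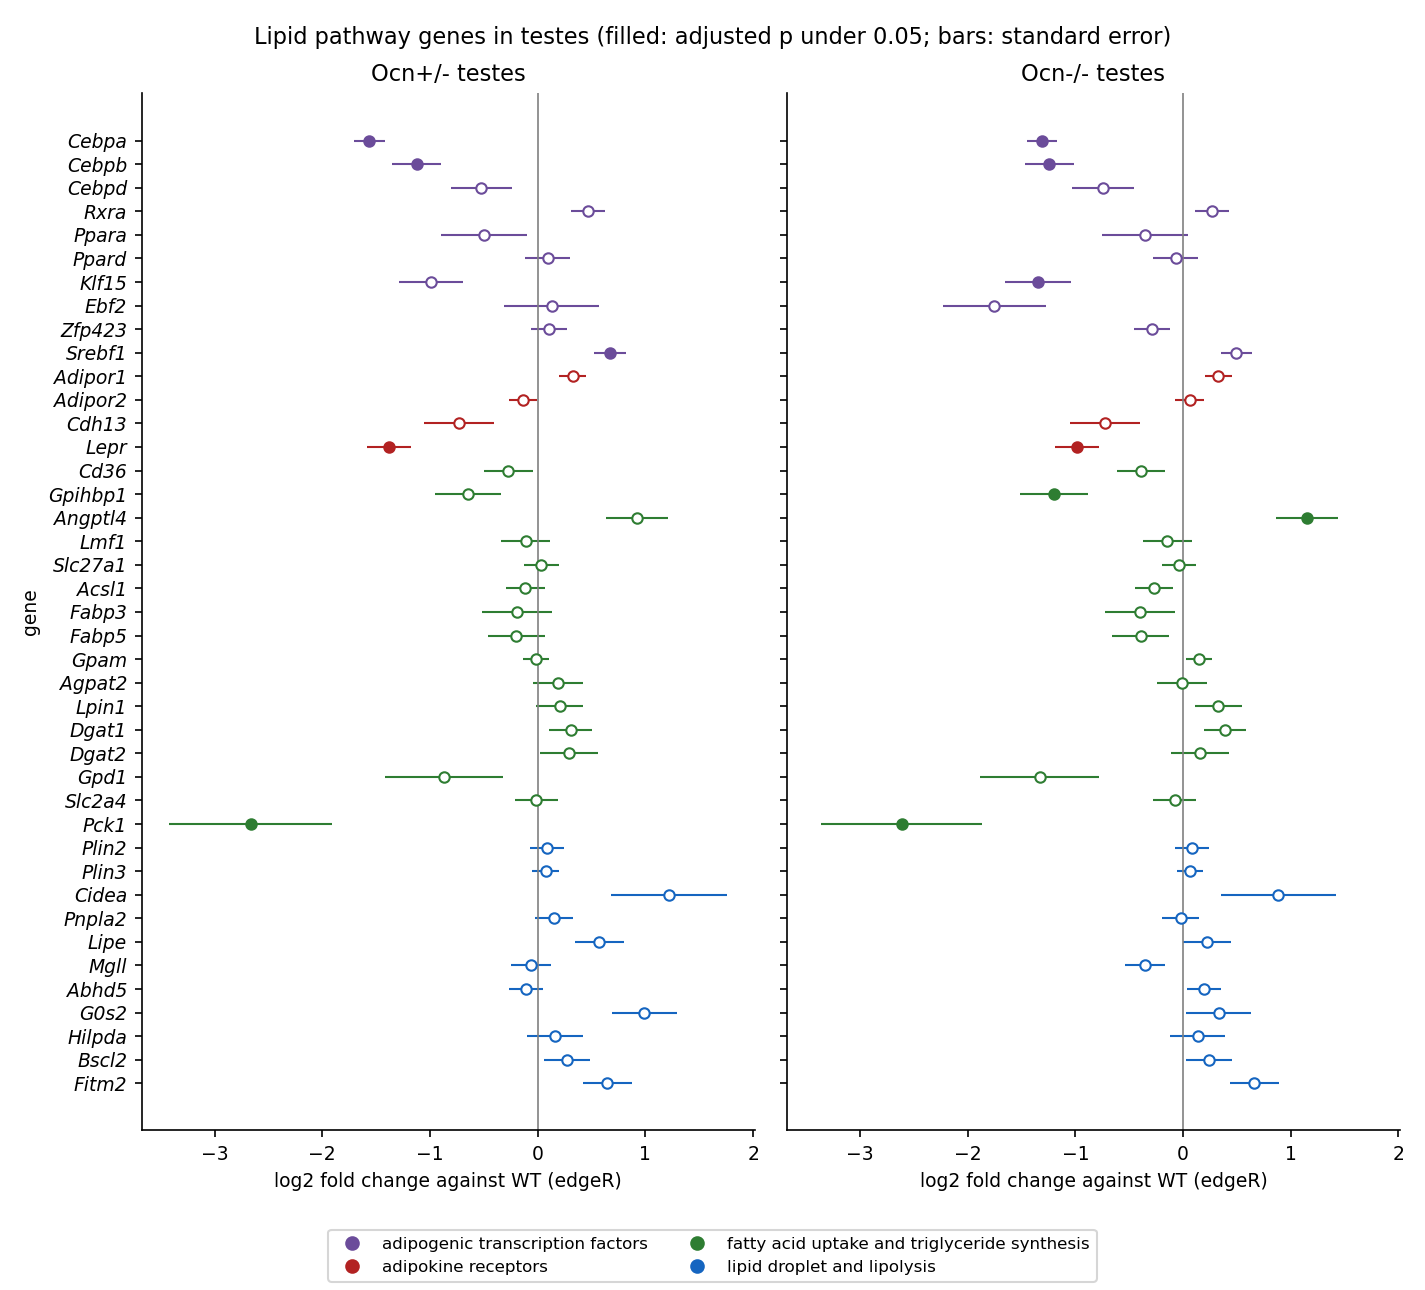
Log2 fold change against WT, with its standard error, for the tested genes of 4 fixed lists in Ocn+/- (left) and Ocn-/- testes (right), with list colours in the legend and filled points at an adjusted p under 0.05. Cebpa, Cebpb and Lepr are filled and lower in both panels, as is Pck1, which was tested only through its WT level, Angptl4 is filled and higher in Ocn-/-, and none of the lipid droplet and lipolysis genes is filled.

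The receptors of the adipocyte hormones had counts in every testis, while the hormones had few or none. All 4 of the list were tested in testes, and 1, Lepr, was lower in both mutants. Lepr, the leptin receptor, was at 26.9 ± 3.76 CPM (WT), 10.3 ± 0.926 (Ocn+/-) and 13.6 ± 2.25 (Ocn-/-). By edgeR it fell by 1.38 (standard error 0.207, adjusted p = 0.00142) and by 0.98 (0.204, adjusted p = 0.011) on the log2 scale. The Ocn-/- call was lost without WT 1 (adjusted p = 0.142), WT 2 (0.084) or Ocn-/- 1 (0.0531). In forebrain Lepr was at 11.4 ± 2.33 CPM in WT, 7.8 ± 1.22 in Ocn+/- (adjusted p = 0.128) and 6.76 ± 0.671 in Ocn-/-, where it was lower by the test (-0.73, standard error 0.195, edgeR adjusted p = 0.0368). Without forebrain WT 2 (0.0567), WT 3 (0.183), Ocn-/- 1 (0.0988) or Ocn-/- 2 (0.116), or scaled by library size alone (0.0689), that call was lost. The adiponectin receptor genes Adipor1 and Adipor2 were not called in either tissue.

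Among 12 other genes of white adipocytes, 10 were tested in testes, with 1 lower in Ocn+/- and 2 lower in Ocn-/- (medians -0.04 and -0.48), and 0 to 2 calls in each when 1 library was left out. Aoc3, an amine oxidase of adipocytes and vascular smooth muscle, was at 83.3 ± 8.65 CPM (WT), 55.3 ± 7.16 (Ocn+/-) and 55 ± 8.83 (Ocn-/-) (log2 fold change -0.59 and -0.60, edgeR adjusted p = 0.0296 and 0.0332). Rbp4, the retinol carrier, was at 10.3 ± 3.96, 6.35 ± 0.622 and 4.98 ± 0.655 CPM and was lower in Ocn-/- (-1.05, standard error 0.297, edgeR adjusted p = 0.0472). Of 10 brown adipocyte genes, 6 were tested and 0 were called in either genotype (1 in Ocn+/- without Ocn+/- 2), with Prdm16 and Cidea the highest by CPM. Cidea ranged from 2.65 to 5.83 CPM in WT and from 3.66 to 14.4 CPM in the mutants. All 8 genes listed for adipocyte progenitors, which are also genes of fibroblasts and vessels, were tested. Cd34 (-0.52, edgeR adjusted p = 0.0335) and Pdgfra (-0.41, adjusted p = 0.0474) were lower in Ocn+/-, and Pdgfrb (-0.64, adjusted p = 0.0124) was lower in Ocn-/- testes, with list medians of -0.20 and -0.55 and 0 to 2 and 0 to 3 calls when 1 library was left out. Leaving out WT 2 ended the calls of Aoc3 (adjusted p up to 0.417), Rbp4 (0.603, at a log2 fold change of -0.57), Cd34 (0.278) and Pdgfrb (0.331), and leaving out WT 1 that of Pdgfra (0.283). At adjusted p no higher than these, Aoc3 also lost a call without WT 1, any Ocn+/- library, Ocn-/- 1 or Ocn-/- 2, and Rbp4 without WT 1, any Ocn-/- library, Ocn+/- 1 or Ocn+/- 3. Cd34 lost its call without WT 1, Ocn+/- 1 or Ocn+/- 3 and Pdgfra without WT 2, Ocn+/- 1, Ocn+/- 3 or Ocn-/- 1, so these calls rest on few libraries. Scaling and model mattered too. Scaling by library size alone ended the calls of Aoc3 (adjusted p = 0.0516 and 0.0589), Rbp4 (0.0572) and Pdgfra (0.0749). Pdgfra was also lost with upper quartile scaling (0.0512) and the likelihood ratio test (0.0528), and Rbp4 with only the 2 genotypes fitted (0.0655).

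In forebrain these lists held few calls. No gene of the transcription factor, lipid droplet, other white adipocyte or brown adipocyte lists was called against WT, by edgeR, among 10, 12, 9 and 5 tested. Leaving out 1 library gave at most 1 call in the first 2 of these lists, in Ocn-/-, and 0 in the others. Their highest genes by CPM were Srebf1 and Zfp423, Bscl2 and Mgll, Pcx and Slc7a10, and Ppargc1a and Dio2, with log2 fold changes between -0.20 and 0.24. Of the transcription factors, Klf15 was at 5.36 to 9.14 CPM in the mutant forebrains, below all WT (9.43 to 10.25). Cebpd was at 1.08 to 3.51 CPM, also below all WT (4.12 to 6.45), and the other factors overlapped. The share of all forebrain genes wholly below WT is not given. Of 14 genes of fatty acid uptake and triglyceride synthesis Angptl4 was higher in both mutants. Of the 8 progenitor genes Ly6a, also called Sca-1, was lower in Ocn-/- at 0.591 ± 0.0759 CPM against 3.33 ± 0.714 in WT (-2.48, standard error 0.392, edgeR adjusted p = 0.00132). Between Ocn-/- and Ocn+/- no gene of any list was called in either tissue.

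Markers of other cell types that can carry Lpl, Fabp4, Pparg or Plin1 were followed too. In Ocn+/- and Ocn-/- testes the median log2 fold changes were -0.38 and -0.86 for endothelium and -1.08 and -1.14 for Leydig cells. For macrophages they were -0.03 and -0.39, beside 0.01 and -0.01 over all genes. All Leydig markers but Hsd3b1 and all endothelial markers but Cldn5 lay wholly below WT, as 13.6% of all genes did. Over all genes 4.36% and 3.09% were called lower. WT testes summed to 611 to 623 CPM over the 9 endothelial markers, Ocn+/- testes to 396 to 464 and Ocn-/- testes to 361 to 400, with no overlap between WT and mutants and none at 0. By edgeR 3 of the 9 were lower in Ocn+/- and 7 in Ocn-/-, with 0 left in Ocn+/- without WT 2 and 2 left in Ocn-/- without WT 1. For the 6 Leydig cell markers the sums were 1691 to 1772 CPM (WT), 714 to 1249 (Ocn+/-) and 742 to 1134 (Ocn-/-), below WT in every mutant testis, with 1 of 6 called lower in each genotype and 0 left in Ocn-/- without WT 2, while Plin1 was above WT in every mutant testis. The 9 macrophage markers overlapped, from 139 to 141 CPM (WT), 133 to 170 (Ocn+/-) and 72.3 to 151 (Ocn-/-), with 8 tested, 1 higher in Ocn+/- (0 without either WT or Ocn+/- 3) and 0 called in Ocn-/-. In forebrain the endothelial sums overlapped between genotypes, at 199 to 227, 171 to 212 and 169 to 233 CPM, yet 2 of the 9 markers were called lower in Ocn+/-, Kdr and Pecam1, and 1 in Ocn-/-, Kdr, with 0 left in Ocn+/- without WT 2, WT 3 or any Ocn+/- library, in Ocn-/- without WT 2, WT 3, Ocn-/- 1 or Ocn-/- 2, and in both with library size alone. Kdr, the main receptor of VEGF on endothelium, was at 39.3 to 51.1 CPM in the mutant forebrains, below all WT (53.2 to 68.8), while Cldn5, a tight junction gene of the same list, was at 34.2 to 46.7 CPM in the mutants, above all WT (29.4 to 33.7), and was not called (adjusted p = 0.365 and 0.0906 by edgeR). In testes Cldn5 was at 7.77 to 9.97 CPM (WT), 12 to 13.6 (Ocn+/-) and 9.6 to 12.2 (Ocn-/-), above WT in Ocn+/- and not called (adjusted p = 0.165 and 0.535 by edgeR). The part of these cells in the levels of Lpl, Fabp4, Pparg and Plin1 was not tested.

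**Figure D4:**
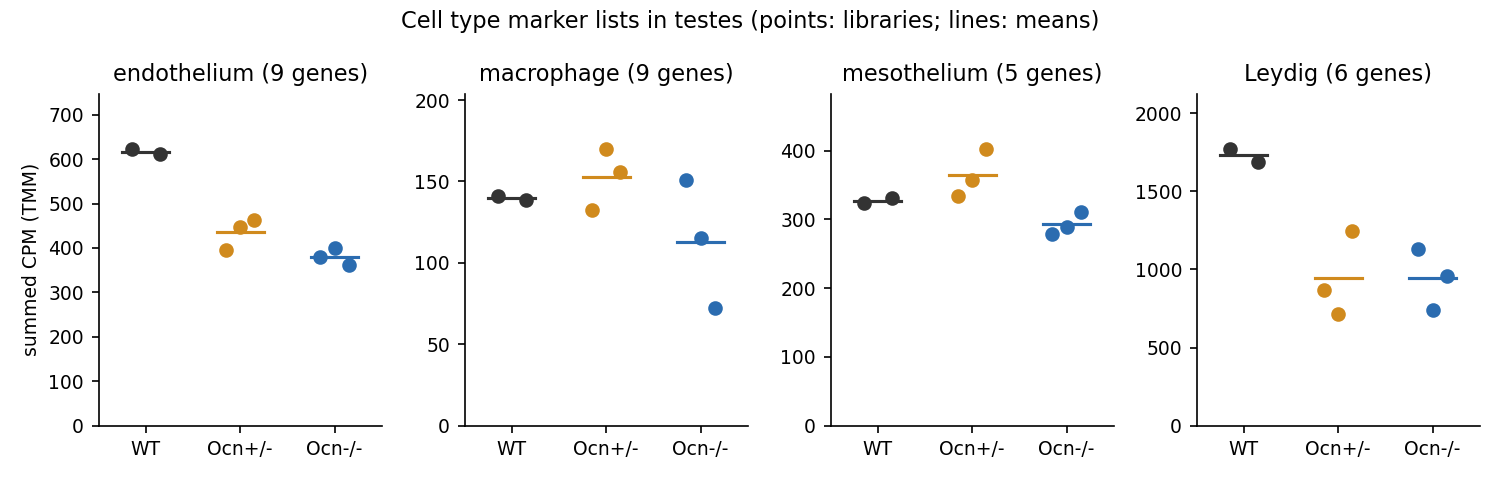
Summed CPM of the marker lists of endothelium, macrophages, mesothelium and Leydig cells in each testis (points) with the mean of each genotype (lines), on axes that start at 0. The endothelial and Leydig sums of all mutant testes lie below both WT testes, and those of macrophages overlap with WT. Those of mesothelium, largely Wt1, lie above WT in Ocn+/- and below it in Ocn-/-.

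Tissue that could be carried along at dissection was looked for in the same way. Skeletal muscle markers summed to 7.71 to 14.4 CPM over all testes, with 0 of 4 tested genes called. Mesothelial markers summed to 324 to 330 CPM in WT, 334 to 402 in Ocn+/- testes and 279 to 311 in Ocn-/- testes, with 1 of 5 lower in Ocn-/-, and 0 without WT 2, Ocn-/- 1 or Ocn-/- 3. Wt1 alone was at 192 to 220 CPM in WT testes and 173 to 242 in the mutants. The mesothelial sums thus rest largely on that gene, and each mesothelial marker overlapped between WT and mutants. Wolffian duct and epididymis markers summed to 23.9 to 75.1 CPM, with 2 of 5 higher in Ocn+/- and 1 in Ocn-/-. The count in Ocn+/- fell to 0 without WT 1 or Ocn+/- 1 and to 1 without WT 2 or Ocn+/- 3, and that in Ocn-/- to 0 without either WT, any Ocn-/- library or Ocn+/- 2. The testis itself was plain in every library, with Sertoli cell markers at 629 to 970 CPM (1 of 5 higher in each genotype, 0 in Ocn+/- without WT 1) and germ cell markers at 249 to 322 CPM (0 of 5 called). Neuronal markers of forebrain summed to 15.9 to 22.6 CPM in testes, with 0 of 2 tested genes called, and the meningeal list, which holds fibroblast genes, to 1331 to 1531 CPM in WT, 873 to 1267 in Ocn+/- and 727 to 1153 in Ocn-/-, below WT in every mutant testis, with 0 of 3 called.

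Genes whose levels ran most like a summed reference were sought by Pearson correlation of log2 CPM over the 8 testes, which share the 3 genotypes. The reference was the summed CPM of Adipoq, Plin1, Plin4, Cidec, Lep, Cfd and Retn, of which 96.3% was Plin1, so the likeness is to Plin1. By the values as they stand, the most alike were Rimkla (r = 0.986), Ciapin1 (0.98), Alpl (0.978), the pseudogene Pcna-ps2 (0.976) and Srprb (0.976). With the genotype means taken out, the 5 values were 0.962, 0.963, 0.961, 0.946 and 0.96, and the most alike were others, Hgh1 (0.986), Aaas (0.982), Mul1 (0.979), Klc4 (0.977) and Thap3 (0.977). Over 16357 genes compared, 158 had r over 0.9. None of these 10 is a gene of the adipocyte lists, but the lists hold few of the 16357 genes compared, so that absence says little.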

How the data were processed

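The authors trimmed the reads with Trim Galore 0.6.6, aligned them to GRCm39 with STAR 2.7.8a and counted them with RSEM 1.3.3, per the labels and the study's methods. The deposited table holds RSEM's expected counts per gene, estimated counts that divide a read among the genes it matches, without normalization, in 55359 genes, of which 9625 hold a value that is not whole. The GENCODE release and strand setting of the counting are not given in the sources used here. Names and positions come from GENCODE on GRCm39, where 54749 identifiers were found. None of the 10 genes has the same identifier version there as in the table.

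Expected counts were rounded. R 4.3.3 and edgeR 4.0.16 fitted each tissue alone with TMM scaling, filterByExpr by genotype and robust quasi-likelihood, genotype being the only term, two-sided, with calls at a Benjamini-Hochberg adjusted p under 0.05 over all genes tested (16361 in testes, 16076 in forebrain). Fold changes are on the log2 scale, levels are CPM, and logged CPM used a prior count of 2. Calls depend on few libraries, since testes have 2 WT, and counting error limits genes under about 20 counts. The biological coefficient of variation was 0.153 in testes and 0.115 in forebrain.

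The 10 genes, the lists and the alternatives were chosen with earlier results of these data known. Of each list, up to 3 called genes with the largest change per comparison were named or, where none was called, the highest by level, which were left out between the mutants. Adig, Aqp7, Ucp1, Slc2a4, Lipe, Kdr, Pecam1, Cldn5, Adipor1 and Adipor2 were named after their values were seen. So were Fitm2, G0s2, Wt1 and Hsd3b1 in testes and Klf15 and Cebpd in forebrain. Alternatives were upper quartile scaling, library size alone, DESeq2 1.42.0, a likelihood ratio test, no filter, only the genotypes compared, a replicate block and leaving out each library. The steps were tested on simulated data. The promoter window of 1 gene is not reported here.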

Additional observations from a re-analysis of the deposited data

Results flagged for a closer look

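The mutant mean of Srebf1, a transcription factor of fatty acid synthesis, lay above the WT mean in testes and below it in forebrain. In testes the mean of the mutant libraries minus the WT mean was 35.2 CPM, and in forebrain it was -4.88 CPM, with every mutant library above the WT mean in testes and below it in forebrain. In forebrain the libraries of WT (40.6 to 45.7 CPM) and Ocn+/- (35.5 to 41.8 CPM) overlapped, those of Ocn-/- (37.5 to 40 CPM) lay below WT, and edgeR's adjusted p was 0.326 in Ocn+/- and 0.358 in Ocn-/-, against 0.0131 and 0.0562 in testes. The difference between the tissues was not tested, and the 2 tissues were scaled apart.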

How the results depend on the processing

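Over the 15 alternatives, the log2 fold changes against WT in testes ran from -1.42 to -0.77 for Lpl, -2.45 to -1.08 for Fabp4, -1.58 to -0.94 for Pparg and 0.35 to 1.08 for Plin1, and since the genotypes did not overlap and had been seen when the genes were chosen, their direction is no sign of stability. The causes of the changes below were not tested. The numbers of genes called moved with the libraries kept and with the filter. Leaving out 1 library at a time gave 118 to 2019 genes in Ocn+/- testes (1350 with all), 85 to 1559 in Ocn-/- (922) and 0 to 47 between the mutants (0), with the lowest against WT without WT 2. In forebrain it gave 183 to 830 in Ocn+/- (625), 189 to 919 in Ocn-/- (780) and 1 to 2 between the mutants (1), the lowest against WT without WT 3. Without a WT testis, the lone WT library is assumed to vary like the other groups. With no filter the counts in the same order were 2149, 1763, 252, 1265, 1502 and 34. The likelihood ratio test gave 1389 in Ocn-/- testes, 59 between mutant testes, 944 in Ocn+/- forebrain and 5 between mutant forebrains. DESeq2 gave 76 between mutant testes and 5 between mutant forebrains. Fitting only the 2 genotypes compared gave 2084 in Ocn+/- testes and 0 between mutant forebrains. Library size alone gave 369 in Ocn+/- forebrain and 2 between mutant forebrains. It also raised the share of higher calls from 47.2% to 68.1% in Ocn+/- testes, 45.1% to 65.2% in Ocn-/- testes, 31% to 47.7% in Ocn+/- forebrain and 37.2% to 64.5% in Ocn-/- forebrain, where the median log2 fold change of all genes was 0.0723 to 0.106, beside -0.00638 to 0.00658 with TMM.

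Replicate numbers recur across genotypes, but libraries with the same number did not deviate together, with correlations of -0.094 to 0.087 over 7 pairs in testes and -0.037 to 0.146 over 9 in forebrain, so the numbers were not taken as pairing. With the replicate block the counts were 966, 836 and 1 in testes and 768, 1140 and 1 in forebrain. Of the genes named from the lists, Gpihbp1 (adjusted p = 0.063) and Rbp4 (0.0677) in Ocn-/- testes and Pdgfra (0.0739) in Ocn+/- testes were then not called, and 2 (Ocn+/-) and 3 (Ocn-/-) of the 6 Leydig markers were.

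Where Lpl did not differ, its sign was not fixed. It reversed between mutant testes without Ocn+/- 1 (-0.003). In Ocn+/- forebrain it reversed with library size alone (0.049) and without Ocn+/- 3 (0.02), in Ocn-/- forebrain with upper quartile scaling (-0.009), without WT 1 (-0.006) and without Ocn-/- 3 (-0.08), and between mutant forebrains without Ocn-/- 3 (-0.047) and without Ocn+/- 3 (-0.014). Leaving out 1 library gave at most 0.473 between mutant testes, -0.068 to 0.02 in Ocn+/- forebrain, -0.08 to 0.085 in Ocn-/- forebrain and -0.047 to 0.118 between the mutants. Depth limits the 6 genes at 0 to 5 counts per testis, whose fold changes cannot be read.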
